A study of Mus musculus with 6 samples.

Results

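Mucin-type and sialyl glycosyltransferases are Golgi enzymes that start, extend, branch and cap the sugar chains of mucins, other glycoproteins and glycolipids. The genes were taken from the deposited count table by symbol, as the Galnt, B3gnt, B4galt, B3galt, St3gal, St6gal, St6galnac, St8sia, Gcnt and Fut families without antisense or pseudogene entries, which gave 74 of the 55809 symbols. They were measured by RNA sequencing in 410.4 cells, a mouse mammary carcinoma line. The cells spent 2 days either in medium into which neutrophil extracellular traps (NETs, webs of DNA and granule proteins released by neutrophils) had been isolated, or in control medium, with 3 libraries each and 0.5% serum in all. Whether the replicates were separate cultures is not stated, so the spread that a p-value is measured against may be only technical, and the design cannot tell NETs apart from anything else that differed between the media.

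Mucin-type O-glycosylation begins when polypeptide GalNAc-transferases (Galnt genes) attach N-acetylgalactosamine to serine or threonine. The core 1 synthase then adds galactose, and the product can be branched to core 2 by Gcnt1 or capped with sialic acid by St3gal1, enzymes that compete for the same core 1 acceptor. Chains built up by B3gnt and B4galt enzymes can end in sialic acid and fucose, and such ends include sialyl Lewis x, the ligand of selectins in leukocyte and tumour cell adhesion. Sialylated and shortened O-glycans are a known feature of human breast carcinoma cells.

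The libraries held 31119105 to 64431811 counts, with NETs at 45487210, 31119105 and 52890140 and control medium at 64431811, 43923391 and 54585562 for replicates 1 to 3. Levels below are library-scaled counts (CPM, with TMM factors), and CPM per kb divides this by the summed exon length, so that genes can be compared with each other. The epithelial markers Epcam, Cdh1, Krt8, Krt18, Krt19 and Krt7 summed to 4279 to 4497 CPM with NETs and 4151 to 4431 CPM in control medium. Within this sum Krt7 and Krt8 were called higher with NETs (log2 fold changes 0.41 and 0.25). Krt18 and Cdh1 were called lower (-0.27 and -0.14), and Epcam and Krt19 were not called. Of 13 neutrophil markers 6 had no count in any library, among them Elane, Camp and Csf3r, and the list summed to 3.06 to 3.41 CPM with NETs and 1.62 to 2.23 CPM in control medium, most of it S100a8 (2.63 and 1.38 CPM). The pan-leukocyte gene Ptprc had no count with NETs and at most 0.145 CPM in control medium. Of 4 macrophage markers Adgre1 had no count in any library, while Csf1r made up most of a sum of 87.9 to 97.1 CPM with NETs and 34.9 to 39.1 CPM in control medium. Csf1r rose 3.34-fold (adjusted p = 1.65e-12 in edgeR). Cd68 had 10.7 CPM with NETs and 12.4 CPM in control medium and was not called (log2 fold change -0.20), and Lyz2 had no count with NETs. Of 5 fibroblast markers Lum and Dcn had no count, and the sum was 59.2 to 67.9 CPM with NETs and 42.8 to 48.7 CPM in control medium. Most of it was Pdgfra, at 49.2 CPM with NETs and 45.4 CPM in control medium and not called (log2 fold change 0.12), while the collagen gene Col1a1 had 13.4 CPM with NETs and 1.18 CPM in control medium and rose 11.3-fold (adjusted p = 2.34e-11 in edgeR). The part of these sums in the results below was not tested.

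Of the 74 genes 21 had no count in any library and 42 had enough counts to be tested. With NETs 9 of these rose and 13 fell (edgeR's quasi-likelihood test, Benjamini-Hochberg adjusted p under 0.05 over all genes), while over all 13956 tested genes 38.9% were called, 20.2% higher and 18.7% lower. Among the called members the falls were the larger changes: they ran from -2.74 (Fut2) to 0.82 (Galnt10) on the log2 scale. Each of the 5 that changed at least 2-fold fell, Fut2 and Fut7 among them. Over all 13956 tested genes 831 were called with a change of at least 2-fold in either direction. Their split into rises and falls was not taken, so the shared direction of the 5 is a description only. The median log2 fold change of the 42 was -0.03, against -0.00 over all tested genes. At 28 of the 42 all libraries of a group lay on 1 side of the other group, against 49.0% of all genes tested. Of the 42, Fut2, Fut7, Gcnt3 and B3galt4 lay below the filter's level of 0.203 CPM in at least 1 library with NETs but in no control library, so they entered the test through control medium, and the counts over the 42 are given as a description only.

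**Figure D1:**
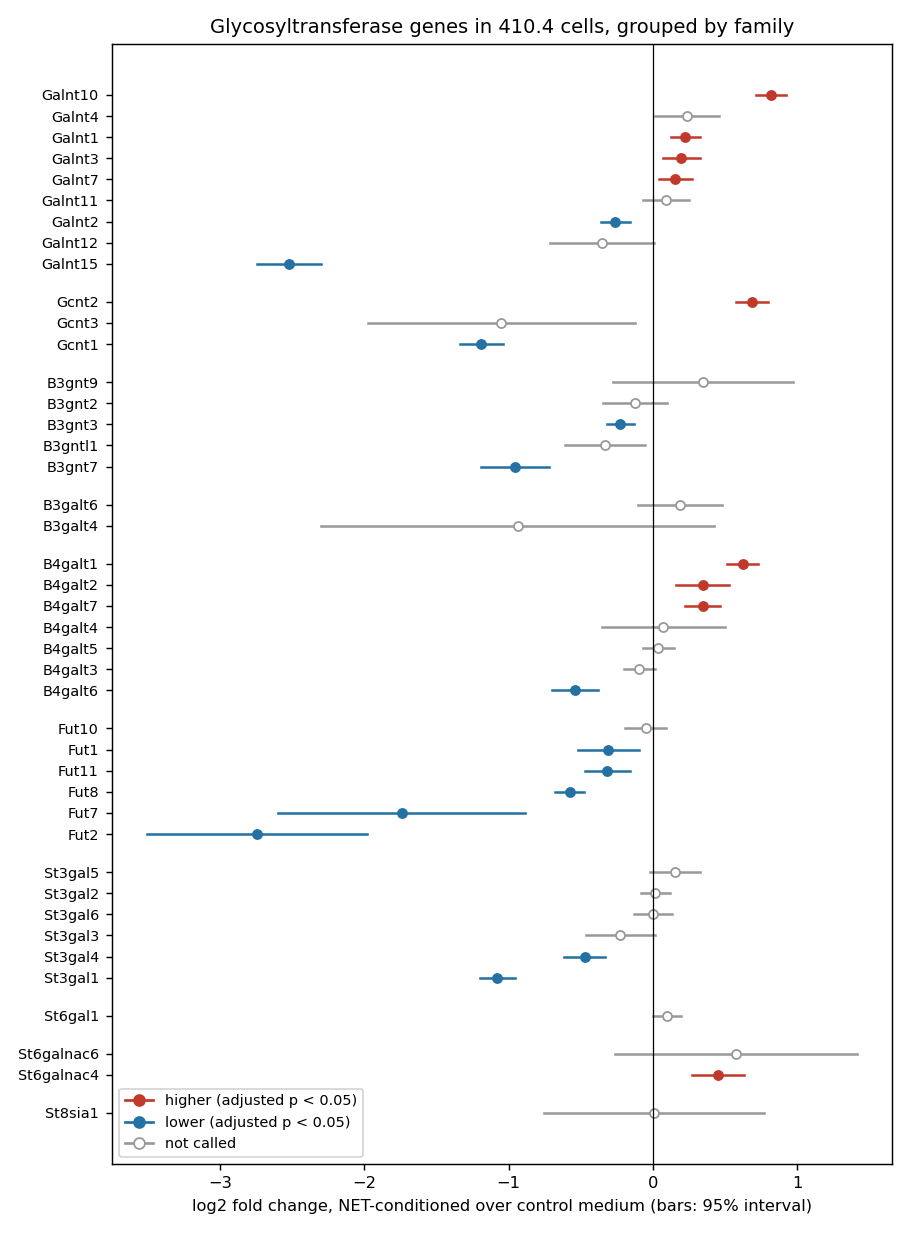
Log2 fold change of each tested member, NET-conditioned over control medium, with its 95% interval, grouped by enzyme family. Filled red and blue points passed the test and open grey points did not; Galnt15, Fut2, Fut7, Gcnt1 and St3gal1 lie furthest to the left, and Galnt10, Gcnt2 and B4galt1 furthest to the right among called genes.

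The GalNAc-transferases, which start mucin-type chains, changed in opposite directions. Galnt15, a member of the family with a low level here, had 6.002, 6.24 and 5.00 CPM with NETs, against 31.9, 36.9 and 29.3 CPM in control medium. The groups lay far apart, and Galnt15 was 5.73-fold lower (log2 fold change -2.52 ± 0.10 (SE), adjusted p = 1.43e-11). Galnt10, an enzyme that prefers peptides already carrying GalNAc, had 101, 103 and 103 CPM with NETs, against 58.1, 59.2 and 57.0 CPM in control medium. All 3 NET libraries lay above all 3 control libraries, and the gene rose 1.76-fold (log2 fold change 0.82 ± 0.05 (SE), adjusted p = 7.71e-10). In the table's coordinates, whose build is not named and differs from GRCm38, Galnt15 lies on chromosome 14, 31750946 to 31784154, on the plus strand, and Galnt10 on chromosome 11, 57536268 to 57678340, on the plus strand, spans that run over exons and introns.

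The 3 most abundant genes of the family by CPM per kb, Galnt2, Galnt1 and Galnt3, changed less than Galnt10 and Galnt15. Galnt2, an initiating enzyme that acts on many substrates, had 183, 186 and 185 CPM with NETs, against 221, 229.8 and 213 CPM in control medium. Its groups did not overlap and it fell by 0.26 on the log2 scale (adjusted p = 2.92e-04). Galnt1, another broad initiating enzyme, had 189, 190.1 and 187 CPM with NETs, against 157, 159 and 168 CPM in control medium. It rose by 0.22 on the log2 scale (adjusted p = 0.00105), with every NET library above the controls. Galnt3, known for glycosylating the hormone FGF23, had 129, 148 and 141 CPM with NETs, against 117, 117 and 131 CPM in control medium. The lowest NET library overlapped the highest control, and the log2 fold change of 0.20 had an adjusted p of 0.0147. Galnt7, like Galnt10 an enzyme for peptides that already carry GalNAc, averaged 75.7 ± 3.25 CPM with NETs and 67.9 ± 2.91 CPM in control medium (SD, n = 3 each; log2 fold change 0.15, adjusted p = 0.0332 in edgeR). The call of Galnt3 was lost without NET replicate 2 or 3 or control replicate 1 or 2 (log2 values 0.15, 0.19, 0.17 and 0.17), and likewise under scaling by library size alone (0.13). That of Galnt7 was lost without the same libraries (0.13, 0.15, 0.15 and 0.12), with library size alone (0.09) and with no low-count filter (0.14).

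The summed level of the initiating enzymes was slightly higher in each NET library than in any control library, and the make-up also differed. The lowest NET library stood at 144.7 and the highest control library at 144.3 CPM per kb. The family summed to 149 ± 3.46 CPM per kb with NETs and 143 ± 1.80 CPM per kb in control medium (SD, n = 3 each). Galnt15 made up 0.612 ± 0.0720% with NETs and 3.61 ± 0.420% in control medium of it, Galnt10 11.6 ± 0.154% with NETs and 6.80 ± 0.152% in control medium, Galnt2 29.0 ± 0.447% with NETs and 36.1 ± 1.44% in control medium and Galnt1 23.0 ± 0.554% with NETs and 20.4 ± 0.620% in control medium. Within each library, where scaling cancels, the ratio of Galnt10 to Galnt2 counts per kb was 0.396, 0.398 and 0.400 with NETs, against 0.189, 0.185 and 0.192 in control medium. Galnt4, Galnt11 and Galnt12 did not pass the test, with 95% intervals of the log2 fold change from 0.01 to 0.45, -0.07 to 0.25 and -0.71 to 0.01. Galnt4 shares exons on the same strand with Poc1b, which held 1043 to 2476 counts, so its value is uncertain. Galnt5, Galnt6, Galnt13, Galnt14, Galntl5 and Galntl6 had no count in any library, and Galnt9, Galnt16, Galnt17 and Galnt18 had at most 20 counts in a library.

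The sequences before the start of Galnt15, with the largest called fall among members above 1 CPM in every library, and of Galnt10 and B4galt1, which rose, are shown because their transcripts moved in opposite directions. They are the 250 bases before the start that RefSeq annotates in GRCm38.p6, read 5′ to 3′ on the gene's strand, and each of these genes has 1 annotated start in that table. Capitals mark matches, on either strand, to CAGACA (a core sequence bound by SMAD factors), AGCCAGACA (the longer CAGA box, which contains it), GGGCGG (the GC box bound by SP factors) and TATAAA. Positions are chr14:32028853-32029102 on the plus strand for Galnt15, chr11:57645192-57645441 on the plus strand for Galnt10 and chr4:40853985-40854234 on the minus strand for B4galt1.
Galnt15: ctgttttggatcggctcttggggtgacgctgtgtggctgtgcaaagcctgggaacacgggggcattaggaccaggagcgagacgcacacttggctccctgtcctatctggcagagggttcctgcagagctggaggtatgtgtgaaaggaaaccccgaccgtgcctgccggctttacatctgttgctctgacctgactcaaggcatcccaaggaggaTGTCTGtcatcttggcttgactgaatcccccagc
Galnt10: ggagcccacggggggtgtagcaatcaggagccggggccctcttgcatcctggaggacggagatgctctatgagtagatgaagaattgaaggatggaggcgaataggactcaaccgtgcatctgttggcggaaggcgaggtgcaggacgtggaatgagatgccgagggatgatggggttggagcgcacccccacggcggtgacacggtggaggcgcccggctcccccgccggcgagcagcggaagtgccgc
B4galt1: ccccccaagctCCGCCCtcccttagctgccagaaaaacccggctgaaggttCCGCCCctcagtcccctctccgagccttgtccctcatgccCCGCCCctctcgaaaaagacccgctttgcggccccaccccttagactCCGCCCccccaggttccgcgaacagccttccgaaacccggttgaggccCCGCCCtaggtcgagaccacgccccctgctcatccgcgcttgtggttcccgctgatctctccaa
The Galnt15 stretch held 1 match to CAGACA, that of B4galt1 held 5 matches to GGGCGG, and that of Galnt10 held 0 matches to any of the motifs.

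RefSeq promoters were at hand for 31 of the 42 tested members, and for several of them more than 1 start is annotated, in which case a gene counts if any of its windows has a match. CAGACA was found in 3 of 9 genes that fell (Galnt15, Gcnt1 and Fut7), in 0 of 8 that rose and in 1 of 14 that were not called (St8sia1), and in 17.1% of all windows or 19.3% of all genes in the table. The longer CAGA box was found in Fut7 and in 0.341% of all genes. GGGCGG stood in 6 of 9 genes that fell, 6 of 8 that rose and 11 of 14 not called, against 35.4% of all genes (32.7% of windows), and TATAAA stood in Gcnt1 alone of the 31 and in 14.3% of all genes. The shares of all genes cover every gene in the RefSeq table, whether tested in these cells or not. They are therefore no like background for the 31 tested members. These are matches of letters and not measured binding sites.

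Gcnt1 and St3gal1, which both act on the core 1 disaccharide, fell, while the synthase that makes it rose. Gcnt1, which branches core 1 to core 2, had 13.5, 15.1 and 14.3 CPM with NETs, against 32.5, 32.4 and 32.8 CPM in control medium. The groups were clearly apart, and Gcnt1 was 2.28-fold lower (log2 fold change -1.19 ± 0.07 (SE), adjusted p = 5.27e-10). St3gal1, which caps core 1 with sialic acid, had 59.9, 52.5 and 55.6 CPM with NETs, against 119, 122 and 114 CPM in control medium. It was 2.11-fold lower, again with no overlap (log2 fold change -1.08 ± 0.06 (SE), adjusted p = 1.33e-10). C1galt1, the core 1 synthase and not a member of these families by symbol, had 188, 184 and 192 CPM with NETs, against 118, 118 and 120.1 CPM in control medium and rose 1.59-fold (log2 fold change 0.67 ± 0.05 (SE), adjusted p = 4.09e-09). Its chaperone gene C1galt1c1 (Cosmc) fell by 0.31 on the log2 scale (adjusted p = 0.00657), a call lost without NET replicate 3 (-0.26). In the same coordinates Gcnt1 spans chromosome 19, 17303505 to 17350208, on the minus strand, and St3gal1 chromosome 15, 66974724 to 67048679, on the minus strand.

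Set against the synthase inside each library, the St3gal1 to C1galt1 ratio of counts per kb was 0.283, 0.254 and 0.258 with NETs, against 0.900, 0.922 and 0.844 in control medium. The ratio of Gcnt1 to C1galt1 was 0.0755, 0.0870 and 0.0791 with NETs, against 0.291, 0.291 and 0.289 in control medium. Both ratios were lower in every NET library than in any control library. The ratio between the competing enzymes, Gcnt1 to St3gal1, was 0.267, 0.343 and 0.307 with NETs, against 0.324, 0.316 and 0.342 in control medium, and these values overlapped. These ratios, like the other ratios given here, were chosen after the values were seen and carry no test, and 3 libraries against 3 cannot go below an exact two-sided p of 0.1.

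**Figure D2:**
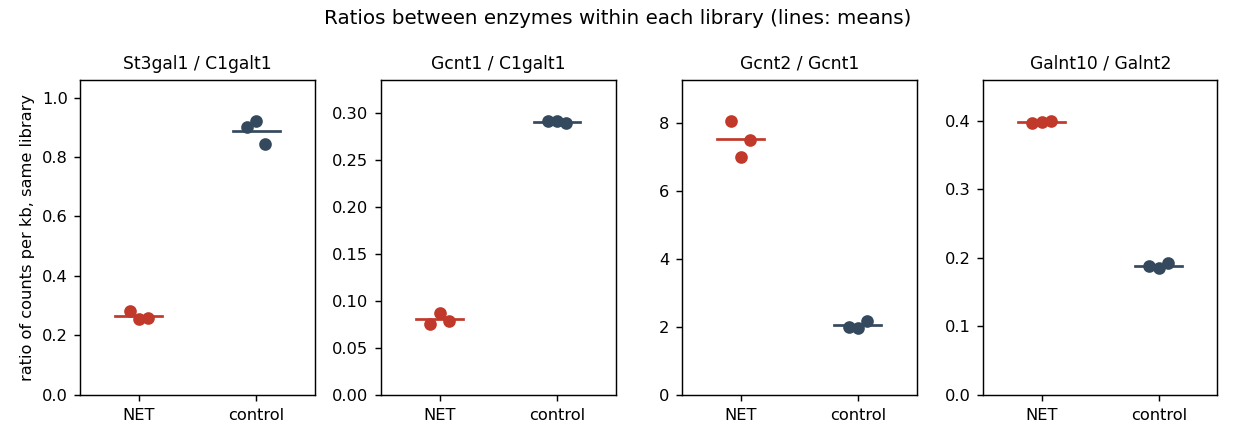
Ratios of counts per kb between pairs of enzymes within each library, with NET libraries left of control libraries, points for libraries and lines for means. The St3gal1 and Gcnt1 ratios to C1galt1 are lower with NETs, and the Gcnt2 to Gcnt1 and Galnt10 to Galnt2 ratios are higher. Each pair sets a gene called higher against a gene called lower and was chosen after the values were seen, so the lack of overlap in the panels is no separate result. The Gcnt1 to St3gal1 ratio, whose groups overlapped, is not drawn.

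Gcnt2, which adds branches to poly-N-acetyllactosamine chains (the I antigen), went the other way from Gcnt1. It had 133, 129.95 and 131 CPM with NETs, against 79.0, 78.4 and 87.3 CPM in control medium. It rose 1.61-fold with the groups well apart (log2 fold change 0.69 ± 0.05 (SE), adjusted p = 1.62e-08). Of the summed level of the Gcnt genes Gcnt1 made up 11.7 ± 0.717% with NETs and 32.7 ± 1.19% in control medium, and Gcnt2 88.0 ± 0.765% with NETs and 66.7 ± 1.18% in control medium. The Gcnt2 to Gcnt1 ratio within a library was 8.06, 7.01 and 7.49 with NETs, against 1.98, 1.98 and 2.18 in control medium. Gcnt3, a core 2 and core 4 enzyme of mucous tissues, had 8, 8 and 10 counts with NETs, against 22, 23 and 26 counts in control medium. Its log2 fold change of -1.05 did not pass the test (adjusted p = 0.0675), though the groups did not overlap, and it passed with library size alone (-1.12). Gcnt4 and Gcnt7 had no count.

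**Figure D3:**
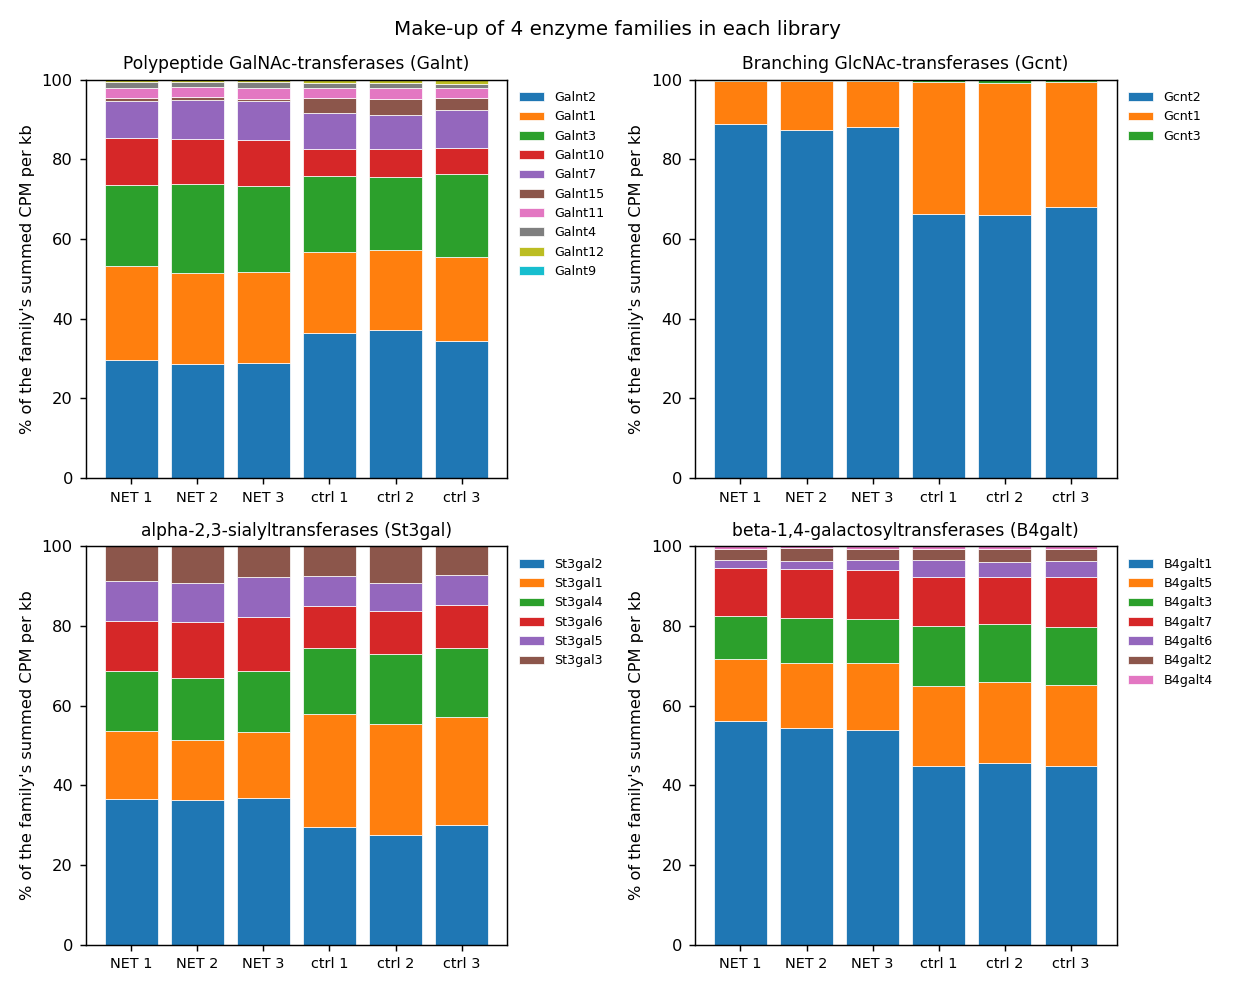
Share of each gene in its family's summed CPM per kb, by library, for 4 families, with NET libraries left of control libraries. With NETs Gcnt1 takes about 11.7% of the Gcnt sum against 32.7% in control medium, St3gal1 16.2% of the St3gal sum against 27.7%, and B4galt1 54.8% of the B4galt sum against 45.2%. Genes under 0.05% in every library are not drawn.

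Among the alpha-2,3-sialyltransferases the falls were those of St3gal1 and St3gal4. St3gal4, which sialylates lactosamine ends and contributes to sialyl Lewis x, averaged 22.6 ± 0.648 CPM with NETs and 31.4 ± 1.62 CPM in control medium (SD, n = 3 each). The groups did not overlap (log2 fold change -0.47 ± 0.07 (SE), adjusted p = 2.09e-05 in edgeR). St3gal2, which acts on gangliosides and core 1, averaged 92.8 ± 1.43 CPM with NETs and 91.7 ± 2.21 CPM in control medium and did not pass, with a 95% interval of the log2 fold change from -0.09 to 0.12. St3gal6, another enzyme of sialyl Lewis x, averaged 41.7 ± 2.57 CPM with NETs and 41.6 ± 1.84 CPM in control medium (interval -0.13 to 0.13), and it overlaps Dcbld2, a gene on the other strand with 25221 to 46637 counts. The signs of the St3gal2 and St3gal6 differences turned with library size alone. St3gal5, the GM3 ganglioside synthase, and St3gal3 did not pass either, with intervals from -0.02 to 0.33 and -0.47 to 0.01. The family summed to 50.4 ± 1.09 CPM per kb with NETs and 62.5 ± 1.54 CPM per kb in control medium. Within it St3gal1 made up 16.2 ± 1.07% with NETs and 27.7 ± 0.649% in control medium, and St3gal2 36.5 ± 0.272% with NETs and 29.1 ± 1.38% in control medium.

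The other sialyltransferases were carried by few genes. St6gal1, which adds alpha-2,6-linked sialic acid to N-glycans, had 186, 187 and 189 CPM with NETs, against 172, 183 and 170.4 CPM in control medium. Every NET library lay above every control library, yet the difference did not pass the test (log2 fold change 0.10 ± 0.05 (SE), adjusted p = 0.114), and its 95% interval ran from -0.00 to 0.20. St6galnac4, which adds a further sialic acid to sialylated core 1, had 30.0, 26.4 and 28.4 CPM with NETs, against 19.2, 23.8 and 19.4 CPM in control medium. The groups did not overlap and the gene rose 1.36-fold (log2 fold change 0.45 ± 0.09 (SE), adjusted p = 5.18e-04). Within a library the ratio of St6gal1 to St3gal1 counts per kb was 4.34, 4.96 and 4.74 with NETs, against 2.01, 2.09 and 2.08 in control medium, and that of St6galnac4 to St3gal1 was 0.530, 0.531 and 0.540 with NETs, against 0.170, 0.207 and 0.180 in control medium. Both ratios contain the fall of St3gal1 given above, were chosen after the values were seen and carry no test. St6galnac6 and the GD3 synthase St8sia1 were low and did not pass, at 0.662 and 0.446 CPM with NETs and 0.432 and 0.441 CPM in control medium. St6galnac2 had 2 to 14 counts in a library. St6gal2, St6galnac1, St6galnac3, St6galnac5, St8sia3, St8sia4, St8sia5 and St8sia6 had none, and St8sia2 had 2 counts in each NET library and 0 in the controls. A count of 0 here leaves room for up to 6 counts, or 3 read pairs, which is 0.0902 to 0.199 CPM, so these genes were not detectable rather than absent.

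The chain-extending galactosyl- and GlcNAc-transferases split by gene. B4galt1, the main enzyme that makes N-acetyllactosamine, had 278, 263 and 257 CPM with NETs, against 169.99, 182 and 167 CPM in control medium. It rose 1.54-fold with no overlap (log2 fold change 0.62 ± 0.05 (SE), adjusted p = 4.48e-08), and it was the most abundant member with NETs, at 62.8 CPM per kb with NETs and 40.9 CPM per kb in control medium. B4galt2, also a lactosamine enzyme, and B4galt7, which builds the linker between proteoglycans and their glycosaminoglycan chains, rose 1.27-fold and 1.27-fold (adjusted p = 0.00446 and 1.13e-04 in edgeR). B4galt6, a lactosylceramide synthase, had 14.5, 14.1 and 15.1 CPM with NETs, against 21.9, 20.4 and 21.2 CPM in control medium. It was 1.45-fold lower (log2 fold change -0.54 ± 0.07 (SE), adjusted p = 1.80e-05). B4galt5, the other lactosylceramide synthase, did not pass, at 80.6 ± 1.28 CPM with NETs and 78.6 ± 3.29 CPM in control medium (log2 interval -0.07 to 0.15), and its sign turned with library size alone. B4galt3 and B4galt4 did not pass either (intervals -0.20 to 0.02 and -0.35 to 0.50), but B4galt3 was called lower with library size alone (-0.16). B4galt2 overlaps Slc6a9, which held 1578 to 4085 counts, on the other strand.

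B3gnt3, an enzyme that extends core 1 chains, was the most abundant member in control medium, at 50.2 CPM per kb with NETs and 58.7 CPM per kb in control medium. It had 156, 151 and 153 CPM with NETs, against 177, 181 and 180.2 CPM in control medium. The shift was small but free of overlap, and B3gnt3 fell by 0.23 on the log2 scale (adjusted p = 7.12e-04). B3gnt7, a keratan sulfate and lactosamine extending enzyme, had 7.54, 7.04 and 8.33 CPM with NETs, against 14.9, 17.1 and 12.8 CPM in control medium. It was 1.94-fold lower (log2 fold change -0.96 ± 0.11 (SE), adjusted p = 3.12e-06). B3gnt2, the main poly-N-acetyllactosamine synthase, and B3gnt9 did not pass, with intervals from -0.34 to 0.10 and -0.28 to 0.97. B3gntl1 stood just outside the threshold (log2 fold change -0.33, adjusted p = 0.0526), and it was called lower under 7 of 13 other settings, with values from -0.33 to -0.41. B3gntl1 overlaps Tbcd, which held 1706 to 2817 counts, and B3gnt9 overlaps Phaf1, which held 780 to 2017 counts. Both partners lie on the other strand, so the values of B3gntl1 and B3gnt9 are uncertain. B3gnt4, B3gnt6 and B3gnt8 had at most 6 counts in a library and B3gnt5 had none. Of the beta-1,3-galactosyltransferases, B3galt6, a proteoglycan linker enzyme, averaged 3.78 ± 0.151 CPM with NETs and 3.32 ± 0.169 CPM in control medium (log2 interval -0.10 to 0.48). The ganglioside enzyme B3galt4 had 20, 0 and 6 counts with NETs, against 24, 22 and 18 counts in control medium. It did not pass (log2 fold change -0.94, adjusted p = 0.274), and without NET replicate 1 it was called lower (-2.41). B3galt1, B3galt2, B3galt5 and B3galt9 were too low to test.

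**Figure D4:**
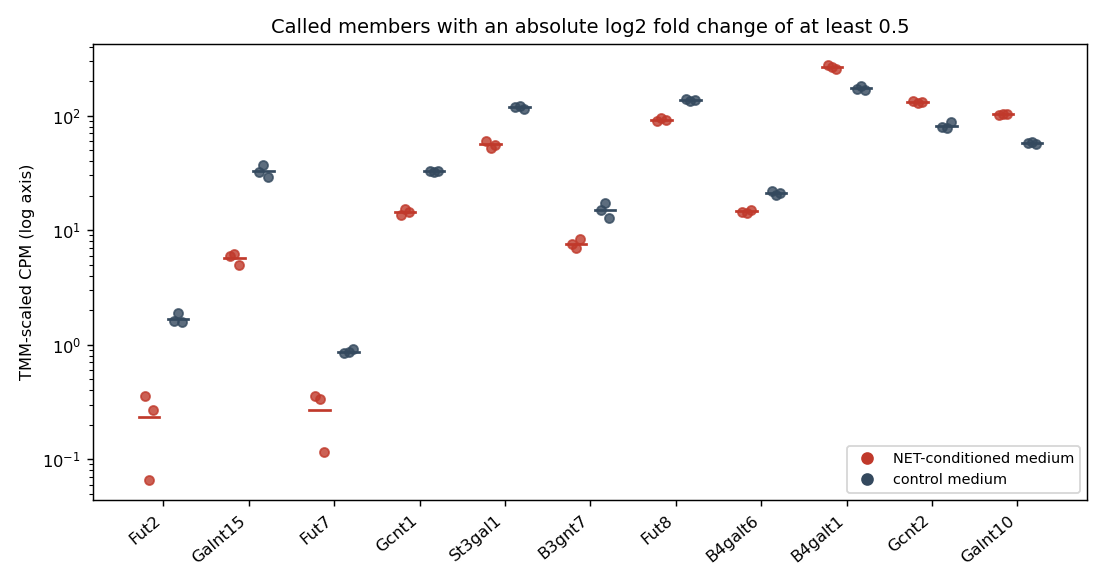
TMM-scaled CPM on a log axis of the 11 called members with an absolute log2 fold change of at least 0.5, with NET libraries left of control libraries, points for libraries and bars for means. Of these 8 lie lower with NETs and Galnt10, Gcnt2 and B4galt1 lie higher, and the groups do not overlap for any of the 11. The 11 were picked by their call and size, so the lack of overlap is no separate result. Of all tested genes 49.0% had groups that did not overlap. Fut2 and Fut7, among the 11, entered the test through control medium.

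Of 6 tested fucosyltransferase genes 0 rose and 5 fell, against 20.2% and 18.7% of all tested genes that rose and fell. Fut2 and Fut7, counted among the 5, reached the filter's level in 2 of 3 NET libraries and in all 3 control libraries, so they were tested through the group where they are high, and the count is a description only. Fut8, which adds the core fucose of N-glycans, had 89.2, 94.6 and 92.0 CPM with NETs, against 139.5, 134 and 138 CPM in control medium. The groups lay apart and Fut8 was 1.49-fold lower (log2 fold change -0.58 ± 0.05 (SE), adjusted p = 4.34e-08). Fut2, which makes the H antigen of secretions, had 16, 2 and 14 counts with NETs, against 106, 85 and 86 counts in control medium. Every NET library held fewer than any control, and Fut2 was 6.69-fold lower at a low level (log2 fold change -2.74 ± 0.36 (SE), adjusted p = 1.11e-05). Fut7, the enzyme that completes sialyl Lewis x on leukocytes, had 16, 10 and 6 counts with NETs, against 56, 39 and 50 counts in control medium. It was 3.34-fold lower (log2 fold change -1.74 ± 0.41 (SE), adjusted p = 0.00250), at 0.268 CPM with NETs and 0.871 CPM in control medium. Fut1, the other H antigen enzyme, and Fut11 fell by 0.31 and 0.32 on the log2 scale (adjusted p = 0.0210 and 0.00274 in edgeR). The call of Fut1 was lost without NET replicate 3 or control replicate 1 (-0.24 and -0.24). Fut10 did not pass (interval -0.20 to 0.09), and Fut4 and Fut9, which also make Lewis x, had no count. The family summed to 23.3 ± 0.481 CPM per kb with NETs and 31.4 ± 0.616 CPM per kb in control medium, of which Fut8 made up 49.8 ± 0.634% with NETs and 55.3 ± 0.570% in control medium.

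Genes that supply the sugars changed in both directions. The counts of this and the other lists are to be read against 20.2% of all tested genes that rose and 18.7% that fell. The lists were chosen with earlier results of these data known, so their counts are a description only. Of 14 genes of UDP-sugar supply 6 rose and 4 fell (median log2 fold change 0.09). Uap1, Pgm3 and Gfpt2, of the route to UDP-GlcNAc, rose by 0.50, 0.44 and 0.79 on the log2 scale, while the nucleotide sugar transporter Slc35d1 fell by 0.43. The call of Gfpt2 was lost without any 1 of the 6 libraries (0.68 to 0.89), with library size alone, with no filter, in DESeq2 and with a replicate block. Of 5 genes of sialic acid supply the rate-limiting Gne rose by 0.29 and Cmas, which activates sialic acid, fell by 0.15, with a list median of -0.04. Of 5 genes of GDP-fucose supply 0 rose and 2 fell, against 20.2% and 18.7% of all tested genes: Fpgt by 0.33 and the transporter Slc35c1 by 0.20 (median -0.13). Of 3 sialidase genes Neu1 and Neu2 fell, by 0.19 and 0.92 (median -0.19). Several of these calls were lost when 1 library was left out: Cmas without NET replicate 1 or 3 or control replicate 1 or 3 (-0.16 to -0.13), Fpgt without control replicate 1 (-0.27), and Slc35c1 without NET replicate 3 or control replicate 1 (-0.20 and -0.20). So was Neu1 without NET replicate 1, 2 or 3 or control replicate 2 (-0.20 to -0.13), and in DESeq2, and Neu2 without NET replicate 1 or 2 or control replicate 3 (-0.84 to -0.73). The adjusted p of these named genes ran up to 0.0448 (Neu1), and the median of all tested genes was -0.00.

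Among the N-glycan branching genes 4 of 5 tested rose and 0 fell, against 20.2% and 18.7% of all tested genes, with a median log2 fold change of 0.40. These were Mgat5, Mgat2, Mgat4a and Mgat4b, at log2 fold changes of 0.42, 0.40, 0.40 and 0.17 (adjusted p = 1.05e-05, 1.02e-05, 3.04e-05 and 0.0463 in edgeR). The call of Mgat4b was lost with library size alone (0.10) and without NET replicate 1, 2 or 3 or control replicate 1 or 3 (0.10 to 0.19). Of 7 other tested galactosyl- and GalNAc-transferases 2 rose and 4 fell, against 20.2% and 18.7% of all tested genes (median -0.20). B4galnt3, which makes the LacdiNAc structure, had 60.7, 52.8 and 55.8 CPM with NETs, against 126, 128 and 128 CPM in control medium, 2.26-fold lower (adjusted p = 3.60e-11). Ggta1, which adds the alpha-galactose cap, fell by 0.39, B3glct, a glucosyltransferase of thrombospondin repeats, by 0.44, and B3galnt2, which acts on dystroglycan, rose by 0.29. Chst2, a sulfotransferase for GlcNAc in selectin ligands and the 1 tested gene of 9 on its list, had 30.1, 28.2 and 26.6 CPM with NETs, against 9.12, 9.53 and 9.20 CPM in control medium. It rose 3.05-fold with the groups well apart (log2 fold change 1.61 ± 0.08 (SE), adjusted p = 4.63e-11).

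Of 20 mucins and mucin-type carriers 8 were tested, of which 3 rose and 1 fell, against 20.2% and 18.7% of all tested genes (median log2 fold change 0.28). Spn, the gene of the sialomucin CD43, had 35.5, 42.0 and 35.2 CPM with NETs, against 13.1, 12.1 and 11.9 CPM in control medium and rose 3.02-fold (log2 fold change 1.59 ± 0.08 (SE), adjusted p = 9.14e-11). Cd24a, a small heavily glycosylated P-selectin ligand, had 358, 388 and 398 CPM with NETs, against 214, 227 and 240.4 CPM in control medium and rose 1.68-fold (adjusted p = 1.30e-08). Muc15 rose 2.09-fold to 2.87 CPM, against 1.36 CPM in control medium. The podocalyxin gene Podxl fell by 0.25 on the log2 scale (adjusted p = 5.83e-04). Muc1, the main mucin of mammary epithelium, was low at 1.25 ± 0.171 CPM with NETs and 1.70 ± 0.0854 CPM in control medium and did not pass (adjusted p = 0.135), and was singled out after its values were seen. Of 8 tested lectin genes 4 rose and 0 fell, against 20.2% and 18.7% of all tested genes (median 0.07). The galectin genes Lgals1 and Lgals3, which bind galactose-ended chains, rose by 0.48 and 0.23 (for Lgals3 not with library size alone, 0.16), Siglecg by 0.93, and Selp, the P-selectin gene, rose 5.89-fold at a low level, with 4.596, 5.08 and 6.09 CPM with NETs, against 0.782, 0.973 and 0.944 CPM in control medium (adjusted p = 6.78e-09).

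Of the 42 tested members 17 share exon positions with another gene, among them 8 of the 22 called. The partners of Galnt2, B3gnt7, B4galt7, Fut8, Gcnt2, Galnt7 and St3gal4 lie on the other strand and held 0 to 261 counts, far fewer than those members. Whether the counting used strand is not stated in what was at hand, and without strand the reads of such pairs cannot be told apart.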

How the data were processed

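RNA of 410.4 cells was sequenced from 3 libraries in NET-conditioned and 3 in control medium, made with a stranded mRNA kit per the labels' protocols. The authors deposited 1 table of counts per gene symbol, made with STAR 2.7.10a and featureCounts of Subread 2.0.3 per the submitters' processing notes, which name the build mm10. Of 73 genes found in the GRCm38.p6 gene table, 17 spans overlapped their position there, so the deposited coordinates follow another build, which is not named, and sequences were matched by symbol only. Low counts were mostly even (74.8% to 78.4% of counts from 1 to 20), so both mates of a pair appear to have been counted.

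Counts as deposited were filtered with filterByExpr (minimum count 10) and scaled by TMM. They were tested on all 13956 remaining genes with edgeR 4.0.16 (robust glmQLFit and glmQLFTest, medium as the only term) in R 4.3.3, with Benjamini-Hochberg adjustment and calls at 0.05. SE is the size of the log2 fold change over the root of F, and intervals are 95%. Between replicates the chi-square per degree of freedom was 9.59 to 25.1, and each replicate was counted once. It was computed on counts as deposited, where counting both mates by itself raises the value, so it is not a multiple of the counting noise. The test was tried on simulated data first. The limit for 0 counts is 6 counts (3 pairs) and covers counting error only. Every tested gene of the families is named, and values per library are given for called genes past 0.5 on the log2 scale and for the 6 with the highest CPM per kb. Other genes came from 10 lists, up to 4 per list. Members and lists were chosen with earlier results of these data known. Alternatives were other scalings and filters, halved counts, DESeq2 1.42.0, a replicate block and leaving out each library.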

Additional observations from a re-analysis of the deposited data

How the results depend on the processing

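Under 13 alternatives the test called 4321 to 5869 genes in all, against 5430, and 7 to 9 of the glycosyltransferase genes higher and 12 to 16 lower, against 9 and 13. Of the 22 called genes of these families 19 were called in the same direction under each alternative that could test them, and the exceptions Galnt3, Galnt7 and Fut1 kept their direction. With library size alone 35.9% of all called genes were higher, against 52.0% with TMM, and 7 glycosyltransferase genes were higher and 16 lower. With the replicate block 5682 genes were called, with 9 and 14 glycosyltransferase genes higher and lower; the shared numbers did not pair the libraries (correlations of deviations 0.118, -0.0593 and 0.0564), and 3 of 6 libraries correlated best with their own number.

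The genes whose sign turned were not called under any setting, and the cause was not tested. With library size alone the log2 fold changes were -0.0319 for B4galt5, -0.0517 for St3gal2, -0.0677 for St3gal6 and -0.0611 for St8sia1. With no low-count filter they were -0.0113 for St3gal6 and -0.00386 for St8sia1, and with halved counts -0.000675 for St8sia1. Leaving out 1 library at a time gave -0.111 to 0.184 for B4galt4, -0.00410 to 0.0316 for St3gal2, -0.0451 to 0.0372 for St3gal6 and -0.0603 to 0.0797 for St8sia1. Depth limits the tested genes with the fewest counts, Gcnt3 and B3galt4, with at most 26 in a library, which fell below the filter once counts were halved, while Fut2 and Fut7 were still called lower there.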
